A study of Mus musculus with 33 samples.

Results

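Mouse lungs that had received 2 airway doses of a viral vector were compared with lungs of untreated mice shortly after their transgene was switched off. The comparison takes 12 of the 33 right-lung RNA samples of the series, all collected at day 97, and covers all 773 genes that the panel measured. The 8 repeat-dose lungs are 4 given AAV-hSPB and 4 given AAV-hSPBTLR9i, and the 4 lungs set against them are called off-doxycycline, with 2 female and 2 male lungs in every group. All mice were CCSP-rtTAtg/(teto)7Sftpb/Sftpb-/- on the FVB/N strain. In mice without vector, surfactant protein B (SP-B) therefore comes not from their own gene but from the (teto)7Sftpb transgene. The activator rtTA, under the CCSP promoter, switches that transgene on while doxycycline is given.

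The repeat-dose mice received vector at day 0 and day 90 and lost doxycycline at day 7, so their lungs were taken 7 days after the second dose and 90 days after doxycycline ended. The off-doxycycline mice received no vector and lost doxycycline at day 94, 3 days before harvest. The 2 arms therefore differ in vector and any SP-B it supplies, in dosing and in the time without doxycycline, and these cannot be told apart here. Beside them stand 4 untreated lungs kept on doxycycline, called on-doxycycline, and 8 lungs given a single dose of either vector at day 0 with doxycycline removed at day 7. Whether every sample is a separate animal is not given in the labels, and the p-values then speak of spread among lung samples.

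As background, SP-B keeps the surface film of the air spaces stable, and its loss leads to respiratory failure with inflammation in newborns and in conditional mouse models. AAV vectors carry DNA that Toll-like receptor 9 can sense, and a second dose meets the antibodies and T cells raised by the first. T cells that recognise antigen release interferon gamma, which raises CXCR3 ligands, antigen presentation genes and the immunoproteasome, whereas tissue injury raises interleukin-6, neutrophil-attracting CXC chemokines and the STAT3 response to them.

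The promoters of 4 chemokine genes on mouse chromosome 5 are shown because Cxcl9 and Cxcl10 were called higher and Cxcl1 and Cxcl2 lower in repeat-dose than in off-doxycycline lungs. Each line gives the 250 bases before the RefSeq start site in GRCm38.p6, 5′ to 3′ on the gene's strand, with matches to any of 3 motifs in capitals. The windows are chr5:92348890-92349139 (minus strand) for Cxcl10, chr5:92328080-92328329 (minus strand) for Cxcl9, chr5:90890995-90891244 (plus strand) for Cxcl1 and chr5:90903649-90903898 (plus strand) for Cxcl2.
Cxcl10: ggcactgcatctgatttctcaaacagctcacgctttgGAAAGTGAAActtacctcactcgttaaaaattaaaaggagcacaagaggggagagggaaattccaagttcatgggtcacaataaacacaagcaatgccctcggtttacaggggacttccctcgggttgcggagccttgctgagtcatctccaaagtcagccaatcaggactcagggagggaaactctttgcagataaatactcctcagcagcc
Cxcl9: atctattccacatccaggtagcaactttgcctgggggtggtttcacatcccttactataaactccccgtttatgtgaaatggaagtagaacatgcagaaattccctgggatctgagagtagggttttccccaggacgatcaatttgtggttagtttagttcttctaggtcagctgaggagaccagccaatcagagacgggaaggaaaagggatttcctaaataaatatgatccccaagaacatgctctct
Cxcl1: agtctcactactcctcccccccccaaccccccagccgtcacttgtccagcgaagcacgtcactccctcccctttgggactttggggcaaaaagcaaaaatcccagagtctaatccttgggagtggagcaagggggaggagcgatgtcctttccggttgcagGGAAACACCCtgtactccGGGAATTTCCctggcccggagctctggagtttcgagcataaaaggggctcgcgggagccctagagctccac
Cxcl2: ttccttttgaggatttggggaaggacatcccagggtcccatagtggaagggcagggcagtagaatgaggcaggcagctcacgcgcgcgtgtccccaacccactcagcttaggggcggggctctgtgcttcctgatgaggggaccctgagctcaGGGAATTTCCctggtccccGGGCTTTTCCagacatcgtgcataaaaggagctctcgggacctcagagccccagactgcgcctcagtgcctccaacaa

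The motifs searched on both strands were the interferon-stimulated response element (GAAA, any 2 bases, GAAA), the STAT site (TTC, any 3 bases, GAA) and a strict form of the kappaB site (GGG, any 2 bases, TTTCC). Cxcl10 held 1 response element, Cxcl1 and Cxcl2 held 2 kappaB matches each, and the Cxcl9 window held none of the 3. Near matches were not counted. Both the Cxcl10 and the Cxcl9 window hold runs that differ from the kappaB letters by 1 base, such as ggggacttcc in Cxcl10 and agggttttcc in Cxcl9. Among all 32851 RefSeq promoters of the same length, 2.98% held the response element, 7.02% the STAT site and 1.41% the kappaB site. Of the measured genes 593 were matched to a promoter by symbol. The response element stood in 39 of these 593 promoters (6.58%), in 12 of 140 of genes called higher and in 1 of 33 of genes called lower. The STAT site stood in 59 (9.95%), in 15 of the 140 and 2 of the 33, and the kappaB letters in 30 (5.06%), in 3 of the 140 and 4 of the 33. A match is only a run of letters, and no binding was measured.

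Of the 773 genes, 181 were higher and 40 were lower in repeat-dose than in off-doxycycline lungs by limma at an adjusted p under 0.05, so that 28.6% passed, 23.4% upward and 5.17% downward. The direction of small changes depended on the scale: the median gene was 0.13 log2 units higher as deposited, 0.01 with all 12 reference genes and -0.05 with each lung centred on its median gene. The split of higher to lower was 128 to 69 with 12 reference genes and 111 to 105 with the median gene. Under both of these scalings 110 of the 181 and all 40 stayed called in the same direction. The called genes named below stayed called under both and with each lung left out in turn unless stated. Hspb1, Mtor, Rbck1, Tnfrsf10b and Xaf1, named below for other reasons, did not. Of all called genes, 101 higher and 15 lower stayed called under both scalings and with each lung left out in turn. Among the called genes, 46 were higher and 6 were lower by more than 1 log2 unit. Over all 773 genes, repeat-dose and off-doxycycline lungs did not overlap for 75 genes with higher and 13 with lower values. Of the 181 called higher 74 did not overlap, and of the 40 called lower 13.

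Some lungs stood apart. Over the 773 genes the off-doxycycline lungs correlated (Pearson) at 0.977 within the female pair and 0.986 within the male pair but at 0.932 to 0.962 between the sexes. AAV-hSPB repeat replicate 2, a female lung, correlated at 0.944 to 0.953 with the other lungs of its group, which reached up to 0.982 among themselves. Without that lung 211 genes were higher and 52 lower. Without both female off-doxycycline lungs the counts were 124 and 7, and without both male ones 199 and 93. The total recovered count was 597788 to 1131011 in repeat-dose and 671453 to 749782 in off-doxycycline lungs, and 73 to 114 genes of a repeat-dose lung and 81 to 109 of an off-doxycycline lung did not exceed its background. Off-doxycycline lungs carry sample numbers in the first 12 of 24 and repeat-dose lungs in the last 12, and whether these were separate measurement runs is not stated, so run and group cannot be told apart. In whole lung, more cells of a type and more RNA per cell cannot be told apart.

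**Figure D1:**
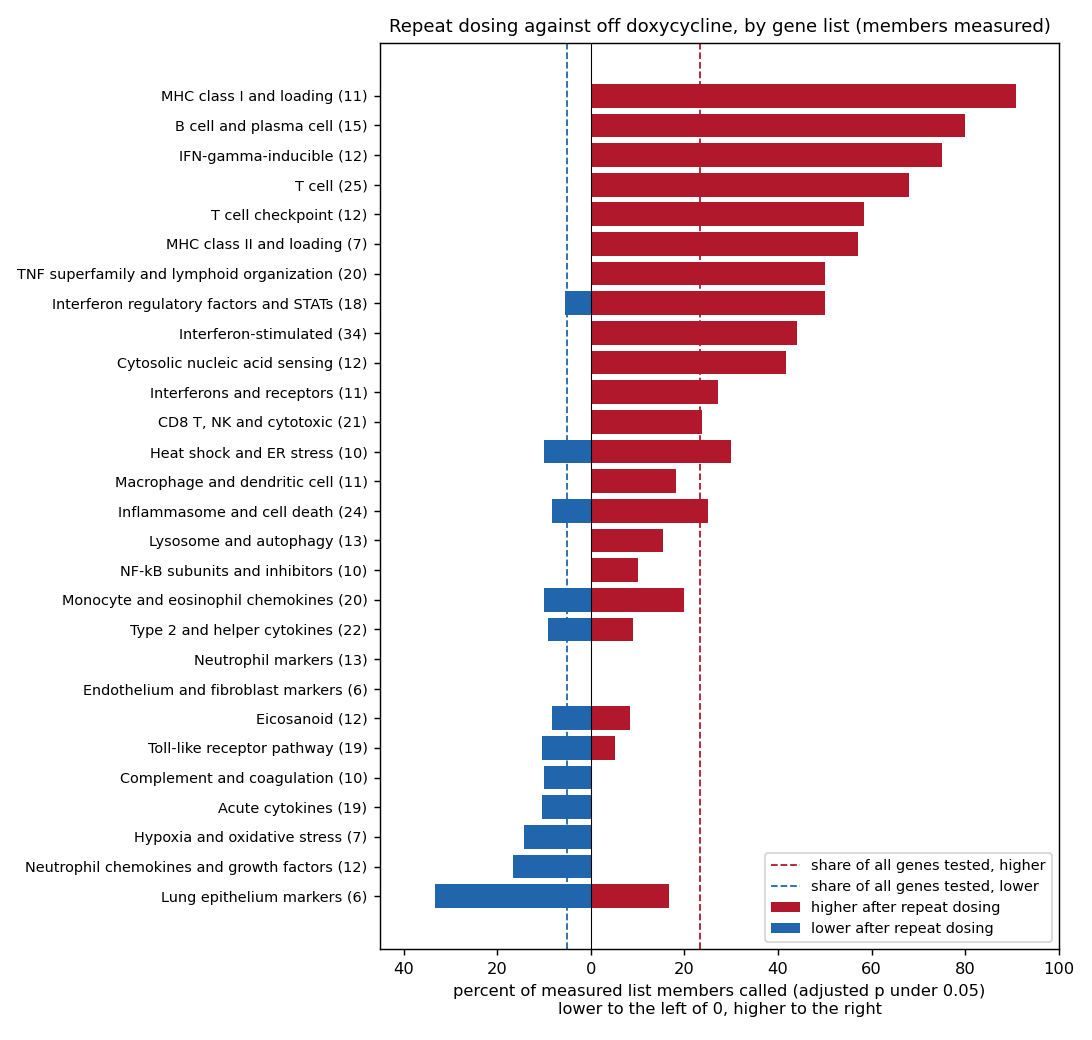
Percent of the measured members of each gene list that were called higher (right of 0) or lower (left of 0) in the 8 repeat-dose lungs relative to the 4 off-doxycycline lungs, for lists with at least 6 measured members (number in brackets). Dashed lines mark the shares over all 773 genes, 23.4% higher and 5.17% lower. The bars of antigen presentation, B cell, interferon gamma and T cell lists run far past the right line. Neutrophil chemokines, acute cytokines, hypoxia and oxidative stress genes, and complement and coagulation genes have bars on the left only.

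The largest rise after repeat dosing was that of Cxcl9, and its fellow ligands and their receptor Cxcr3 were higher too. Cxcl9, which draws activated T cells, stood at log2 normalized counts of 7.66, 8.76, 9.79 and 10.42 in the AAV-hSPB repeat lungs and at 8.38, 9.11, 9.04 and 8.89 in the AAV-hSPBTLR9i repeat lungs, against 5.61, 5.95, 5.15 and 4.18 in the off-doxycycline lungs. Every repeat-dose lung was above every off-doxycycline lung, and the difference of 3.78 ± 0.58 log2 units (standard error, limma adjusted p = 0.000151) is 13.8-fold. Cxcl10, a second ligand, stood at 6.92, 7.12, 7.96 and 9.00 in the AAV-hSPB repeat lungs and at 6.85, 7.54, 7.64 and 7.34 in the AAV-hSPBTLR9i repeat lungs, against 6.03, 6.19, 4.57 and 4.70 in the off-doxycycline lungs. The groups did not overlap for Cxcl10 either (difference 2.17 ± 0.38, adjusted p = 0.000422). The 2 female off-doxycycline lungs held more Cxcl10 than the male pair, and the repeat-dose difference was 0.99 in female and 3.35 in male lungs, which differed by -2.36 ± 0.58 (adjusted p = 0.0325).

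Cxcr3, the receptor of these ligands on T cells and natural killer cells, stood at 7.71, 6.20, 7.27 and 8.26 in the AAV-hSPB repeat lungs and at 6.87, 7.81, 7.60 and 7.63 in the AAV-hSPBTLR9i repeat lungs, against 5.47, 5.45, 5.63 and 5.98 in the off-doxycycline lungs. All 8 repeat-dose lungs were again higher (difference 1.78 ± 0.27, adjusted p = 0.000151). Cxcl11, the other ligand, averaged 5.63 ± 1.11 in repeat-dose lungs and 3.45 ± 1.39 in off-doxycycline lungs (SD, n = 8 and 4). Its call (adjusted p = 0.0101) rests on low values, since 1 of 4 off-doxycycline lungs exceeded background, and raising values to background left a 2.34-fold difference; it was not called without both male off-doxycycline lungs (adjusted p = 0.147). Ifng itself averaged 4.10 ± 1.09 in repeat-dose and 3.10 ± 0.09 in off-doxycycline lungs and did not pass (adjusted p = 0.0701). It exceeded background in 5 of 8 repeat-dose and 0 of 4 off-doxycycline lungs, and without AAV-hSPB repeat replicate 2, at 1.48, it passed with an adjusted p of 4.43e-05.

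Genes that interferon gamma induces were higher as a group: 9 of 12 measured members were called higher and 0 lower, with a median difference of 1.00 against 0.13 over all 773 genes. The counts were the same with either other scaling, and 10 of 12 without both female off-doxycycline lungs and 7 of 12 without both male ones. Gbp2, a guanylate-binding protein of cell-autonomous defence, stood at 9.81, 9.14, 9.08 and 9.82 in the AAV-hSPB repeat lungs and at 9.13, 9.37, 8.99 and 8.85 in the AAV-hSPBTLR9i repeat lungs, against 8.35, 8.28, 8.49 and 8.14 in the off-doxycycline lungs. No repeat-dose lung overlapped the off-doxycycline lungs (difference 0.96 ± 0.15, adjusted p = 0.000215). Cd274, which encodes the checkpoint ligand PD-L1, rose by 0.65 (not without both male off-doxycycline lungs, adjusted p = 0.167), while Irf1 at 0.33 ± 0.15 did not pass (adjusted p = 0.117), although it did without AAV-hSPB repeat replicate 2 (0.00487).

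Antigen presentation rose with them. Of the MHC class I and peptide-loading list, 10 of 11 measured members were higher and 0 lower, with a median of 0.88, and the count stayed at 10 with either other scaling and without either sex of off-doxycycline lungs. H2-D1, a classical class I heavy chain, stood at 14.24, 14.68, 13.91 and 14.47 in the AAV-hSPB repeat lungs and at 14.34, 14.33, 13.60 and 13.89 in the AAV-hSPBTLR9i repeat lungs, against 13.25, 13.45, 13.06 and 13.07 in the off-doxycycline lungs. Psmb9, a catalytic subunit of the immunoproteasome, stood at 11.00, 10.44, 10.23 and 10.91 in the AAV-hSPB repeat lungs and at 10.46, 10.55, 10.07 and 10.08 in the AAV-hSPBTLR9i repeat lungs, against 9.52, 9.38, 9.59 and 9.57 in the off-doxycycline lungs. Neither gene overlapped between repeat-dose and off-doxycycline lungs, and they rose by 0.98 ± 0.15 (adjusted p = 0.000158) and 0.95 ± 0.14 (adjusted p = 0.000128). The peptide transporters Tap1 (0.88) and Tap2 (0.72), the subunit Psmb8 (0.64) and the non-classical molecule H2-M3 (0.94) rose as well.

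Of the class II list, 4 of 7 measured members were higher, with a median of 0.53. H2-Eb1, a class II beta chain, averaged 6.80 ± 0.53 in repeat-dose and 5.74 ± 0.44 in off-doxycycline lungs (SD, n = 8 and 4; difference 1.06 ± 0.23, adjusted p = 0.00181). H2-Ab1 rose by 0.77, H2-DMa, which loads peptide, by 0.53, and H2-Ob, a regulator of loading made by B cells, by 1.23. The H2-Ob call was lost without both female off-doxycycline lungs (adjusted p = 0.0794) and the H2-DMa call without both male ones (0.0508). One off-doxycycline lung, female replicate 1 at 12.84, lay inside the repeat-dose range for H2-Ab1, so those groups overlapped.

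The wider interferon-stimulated list was mixed. As deposited, 15 of 34 measured members were higher and 0 lower (median 0.41), but with 12 reference genes the counts were 10 and 1 and with the median gene 6 and 3. Zbp1, a sensor of left-handed nucleic acid, held through all of these (difference 1.29 ± 0.23, adjusted p = 0.000505), and so did Stat2 (0.50) and Mx1 (1.21), an antiviral GTPase that exceeded background in 3 of 4 off-doxycycline lungs. Isg15, a ubiquitin-like antiviral protein, averaged 8.33 ± 0.56 in repeat-dose and 7.73 ± 0.32 in off-doxycycline lungs and did not pass (adjusted p = 0.0503), but it did without off-doxycycline replicate 2 (0.0288) or AAV-hSPB repeat replicate 1 (0.0233) or 3 (0.0386). Irf7, the master factor of type I interferon, passed as deposited (0.51 ± 0.18, adjusted p = 0.0404) but not with 12 reference genes (adjusted p = 0.107), the median gene (0.161), or without any one of off-doxycycline replicates 1, 2 and 4, AAV-hSPB repeat replicates 2 and 4 and AAV-hSPBTLR9i repeat replicates 2 and 3 (0.06 to 0.115).

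The interferon genes were near background. Ifnb1 did not pass (adjusted p = 0.623), and Ifna4, which was called at 1.25, exceeded background in 0 of 8 repeat-dose and 0 of 4 off-doxycycline lungs, as did Il13. The Il13 call was lost without off-doxycycline replicate 1 (adjusted p = 0.119) or 4 (0.0836). Of the Toll-like receptor list 1 of 19 members was higher, Tlr1 (not without both male off-doxycycline lungs, adjusted p = 0.153), and 2 were lower, Tlr2 and Tlr4, with a median of 0.01. The Tlr2 call was lost without off-doxycycline replicate 1, 2 or 3, AAV-hSPB repeat replicate 1 or 2, or AAV-hSPBTLR9i repeat replicate 1, 2 or 4 (adjusted p 0.052 to 0.198) and the Tlr4 call without off-doxycycline replicate 1 or 2 or replicate 4 of either repeat group (0.0522 to 0.137). Tlr9, the receptor for unmethylated CpG DNA, averaged 6.30 ± 0.43 in repeat-dose and 5.73 ± 0.42 in off-doxycycline lungs (0.58 ± 0.24, adjusted p = 0.0827), and its adaptor Myd88 differed by -0.25 ± 0.19 (adjusted p = 0.36). Tlr9 passed without off-doxycycline replicate 1 (adjusted p = 0.0378) or without AAV-hSPB repeat replicate 2 (0.0300).

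**Figure D2:**
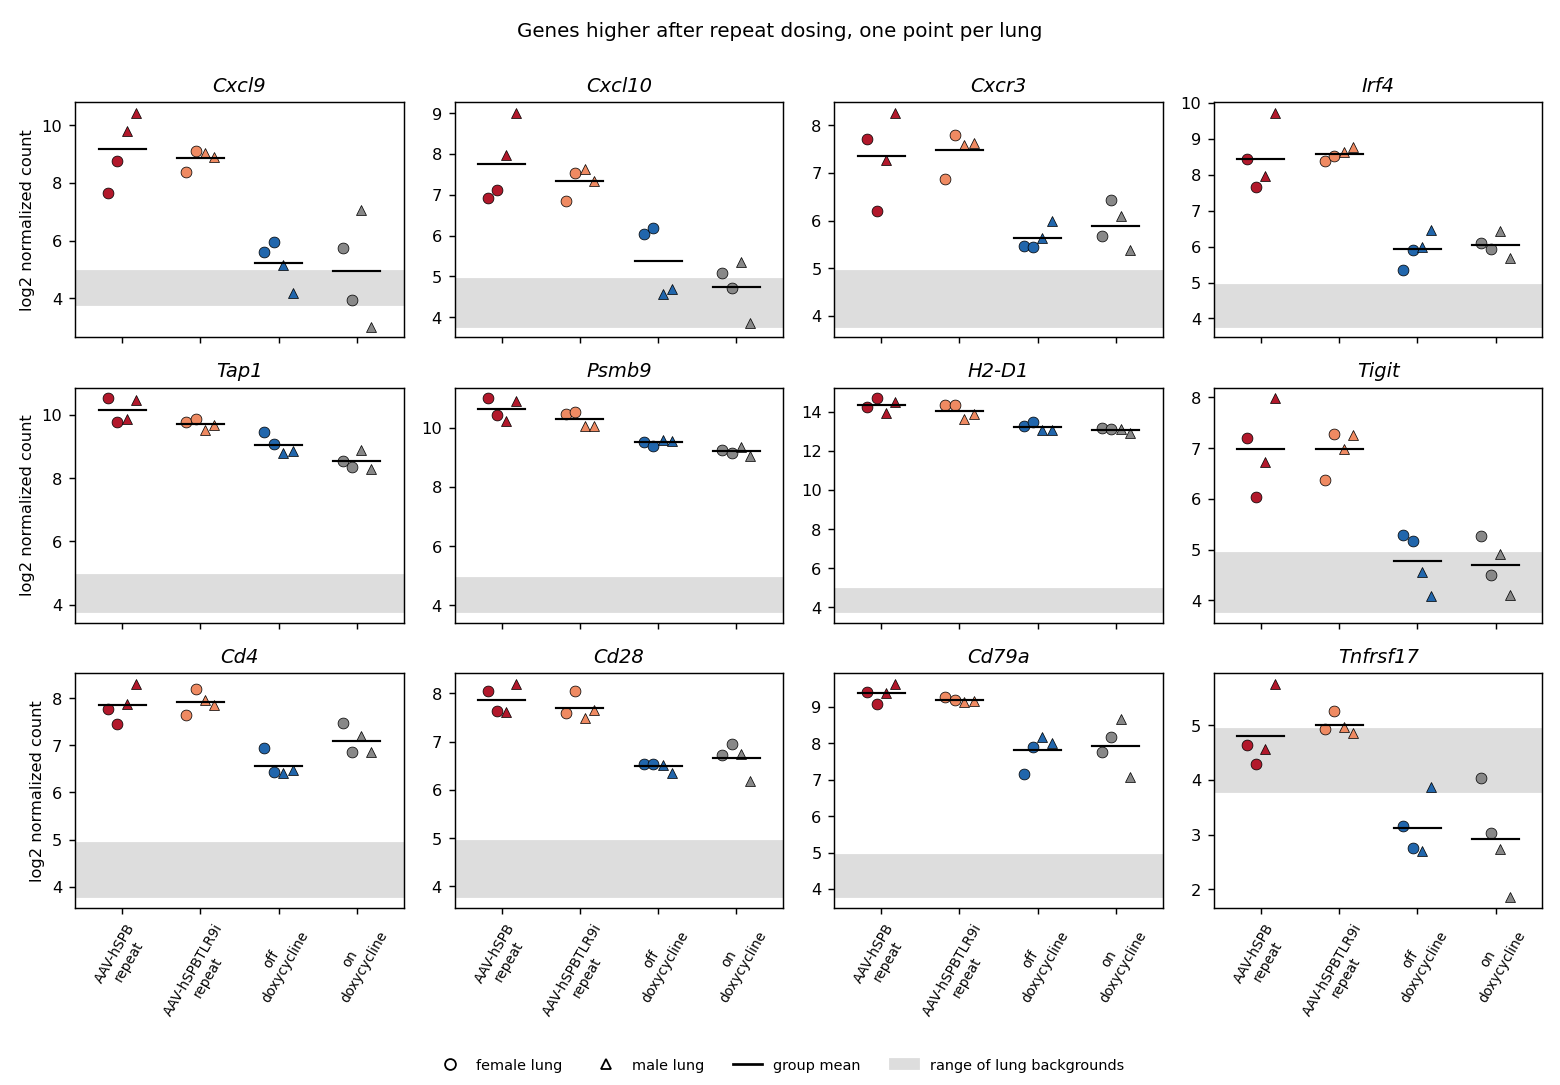
Log2 normalized counts of 12 genes higher after repeat dosing, in each of 4 lungs of the AAV-hSPB repeat group, 4 of the AAV-hSPBTLR9i repeat group, 4 off doxycycline and 4 on doxycycline. Circles are female and triangles male lungs, black bars are group means and the grey band is the range of the lungs' backgrounds. Each of these genes separates all 8 repeat-dose lungs from all 4 off-doxycycline lungs, as do 75 of all 773 genes in this direction. For Tnfrsf17 the off-doxycycline lungs do not exceed their background.

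Of the T cell list, 17 of 25 measured members rose, 0 fell and 8 did not pass, with a median of 0.79. The count of rises was 13 to 15 under the other scalings, 11 without both female off-doxycycline lungs and 16 without both male ones. Repeat-dose lungs had 8 of the 25 higher than on-doxycycline lungs, where 22.9% of all genes were higher. They had 5 higher than single-dose lungs, where 8.67% of all genes were higher. Between off- and on-doxycycline lungs 0 of the list were called (median -0.25), beside 0 of all 773 genes. Cd4, the helper T cell coreceptor, stood at 7.78, 7.45, 7.88 and 8.31 in the AAV-hSPB repeat lungs and at 7.64, 8.21, 7.96 and 7.86 in the AAV-hSPBTLR9i repeat lungs, against 6.93, 6.43, 6.41 and 6.48 in the off-doxycycline lungs. Cd28, the main costimulatory receptor, stood at 8.04, 7.64, 7.61 and 8.20 in the AAV-hSPB repeat lungs and at 7.58, 8.05, 7.49 and 7.65 in the AAV-hSPBTLR9i repeat lungs, against 6.54, 6.54, 6.52 and 6.35 in the off-doxycycline lungs. Both separated the groups fully, by 1.32 ± 0.20 (adjusted p = 0.000151) and 1.29 ± 0.16 (adjusted p = 2.7e-05). The on-doxycycline lungs held 7.47, 6.86, 7.19 and 6.85 for Cd4, a range that overlapped both other groups at its ends. Cd3e of the T cell receptor complex rose by 0.85 (not without both female off-doxycycline lungs, adjusted p = 0.0771), the kinase Zap70 by 0.88, the surface receptor Cd6 by 1.25 and Lax1, an adaptor that dampens lymphocyte receptor signals, by 2.19.

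The cytotoxic effectors Gzmb and Prf1 did not pass the test. Of the CD8, natural killer and cytotoxic list 5 of 21 members were higher, near the 23.4% of all genes, with a median of 0.14. Gzmb, a granzyme, averaged 4.21 ± 0.48 in repeat-dose and 3.75 ± 1.10 in off-doxycycline lungs, and Prf1, the pore-forming perforin, 6.83 ± 0.42 and 6.97 ± 0.46 (SD, n = 8 and 4), with adjusted p values of 0.462 and 0.783. The lungs' backgrounds ran from 3.77 to 4.93 in repeat-dose and 3.88 to 4.47 in off-doxycycline lungs, so the Gzmb test rests on values near background. Cd8a, at 0.71 ± 0.33, missed the threshold (adjusted p = 0.109) and passed without AAV-hSPB repeat replicate 2 (0.0427). Among the members that rose were Tbx21, the factor of type 1 T cells (0.94), Xcl1, a chemokine of activated T and natural killer cells (1.34), Cx3cr1 (0.86) and Itgae (0.82).

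Of the T cell checkpoint list, 7 of 12 measured members were higher and 0 lower, with a median of 0.72. Tigit, an inhibitory receptor of T and natural killer cells, stood at 7.19, 6.03, 6.72 and 7.98 in the AAV-hSPB repeat lungs and at 6.37, 7.28, 6.99 and 7.26 in the AAV-hSPBTLR9i repeat lungs, against 5.28, 5.17, 4.57 and 4.08 in the off-doxycycline lungs. No lung crossed between the groups (difference 2.20 ± 0.34, 4.60-fold, adjusted p = 0.000158). Lag3, a further inhibitory receptor, rose by 1.25 and Ctla4 by 1.05, which lost its call without both male off-doxycycline lungs (adjusted p = 0.142). Pdcd1, which encodes PD-1, averaged 5.75 ± 0.49 in repeat-dose and 4.21 ± 1.32 in off-doxycycline lungs (adjusted p = 0.0209), and lost its call without off-doxycycline replicate 3 (adjusted p = 0.101) or replicate 4 (0.0634) or both (0.46). Its off-doxycycline mean lay within the range of those lungs' backgrounds (3.88 to 4.47). Foxp3, the factor of regulatory T cells, did not pass (0.86 ± 0.37, adjusted p = 0.0895), but did without off-doxycycline replicate 2 (0.0344). The count of this list was 8 without both female off-doxycycline lungs and 2 without both male ones.

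The transcription factor Irf4, which activated T cells and plasma cells need, gave the smallest p of all 773 genes. It stood at 8.43, 7.67, 7.98 and 9.72 in the AAV-hSPB repeat lungs and at 8.37, 8.53, 8.63 and 8.77 in the AAV-hSPBTLR9i repeat lungs, against 5.36, 5.90, 5.99 and 6.46 in the off-doxycycline lungs. The lowest repeat-dose lung, at 7.67, was above the highest off-doxycycline lung, at 6.46, and the difference of 2.58 ± 0.27 (5.99-fold, adjusted p = 5.05e-06) was 2.62 in female and 2.55 in male lungs. B cell and plasma cell genes rose in 12 of 15 measured members, with 0 lower and a median of 1.00, and in 6 without both female off-doxycycline lungs. Cd79a, a signalling chain of the B cell receptor, stood at 9.41, 9.09, 9.38 and 9.64 in the AAV-hSPB repeat lungs and at 9.27, 9.19, 9.15 and 9.16 in the AAV-hSPBTLR9i repeat lungs, against 7.15, 7.91, 8.18 and 8.00 in the off-doxycycline lungs, and all 8 repeat-dose lungs were higher (difference 1.48 ± 0.26, adjusted p = 0.000404).

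Tnfrsf17 (BCMA), a survival receptor of plasma cells, averaged 4.91 ± 0.46 in repeat-dose and 3.12 ± 0.55 in off-doxycycline lungs; it exceeded background in 7 of 8 and 0 of 4 lungs, and with values raised to background the difference was 1.81-fold. Spib, a B cell transcription factor, rose by 1.19 and Xbp1, which drives the secretory programme of plasma cells, by 0.69. Hsp90b1, the endoplasmic reticulum chaperone GRP94, rose by 0.96 ± 0.14 (adjusted p = 0.000128) and Eif2ak3, the stress sensor PERK, by 0.67. Ms4a1, which encodes CD20, was called at 1.10 (adjusted p = 0.0278) but not with 12 reference genes (0.0511), the median gene (0.0536) or without any one of off-doxycycline replicates 1, 2 and 4 or AAV-hSPB repeat replicates 1 and 4 (0.0522 to 0.128).

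Some rises stood outside the lymphocyte lists. Itln1, an intelectin secreted by goblet cells, stood at 8.18, 10.29, 9.19 and 8.34 in the AAV-hSPB repeat lungs and at 11.08, 8.31, 8.54 and 8.17 in the AAV-hSPBTLR9i repeat lungs, against 5.93, 7.53, 5.36 and 6.11 in the off-doxycycline lungs. All 8 repeat-dose lungs were higher, but the spread was wide (difference 2.78 ± 0.75, adjusted p = 0.00886), and the call was lost without both male off-doxycycline lungs (0.0846). Ccl8, a monocyte chemokine, stood at 8.34, 9.68, 9.07 and 10.03 in the AAV-hSPB repeat lungs and at 9.66, 9.26, 10.03 and 9.31 in the AAV-hSPBTLR9i repeat lungs, against 8.13, 7.34, 6.72 and 5.93 in the off-doxycycline lungs and rose by 2.39 ± 0.51 (adjusted p = 0.00171). Ccl19, which guides T cells and dendritic cells in lymphoid tissue, rose by 1.53, Ms4a7, a macrophage membrane protein, by 1.63 and Xcr1, the receptor of cross-presenting dendritic cells, by 1.66 (not without both female off-doxycycline lungs, adjusted p = 0.0694). Csf1r, the receptor that sustains macrophages, rose by 0.59. Of the 11 macrophage and dendritic cell markers measured, only Xcr1 and Csf1r were called, a share under the 23.4% of all genes. Most of the other markers had lower values in repeat-dose lungs without passing.

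The 6 falls of more than 1 log2 unit were those of the neutrophil chemokines Cxcl1 and Cxcl2, the cytokine Il6, the eosinophil chemokine Ccl24, the macrophage chemokine Ccl6 and the receptor Plaur. Cxcl1, a neutrophil-attracting chemokine, stood at 6.67, 7.85, 7.75 and 8.33 in the AAV-hSPB repeat lungs and at 8.60, 7.85, 7.41 and 7.60 in the AAV-hSPBTLR9i repeat lungs, against 10.39, 11.95, 8.98 and 8.28 in the off-doxycycline lungs. The off-doxycycline lungs ran from 8.28 to 11.95, with both female lungs and male replicate 3 above every repeat-dose lung and male replicate 4 inside their range, and the on-doxycycline lungs held 8.93, 7.53, 8.97 and 7.17. The difference was -2.14 ± 0.68 (adjusted p = 0.0225), and it lost its call without off-doxycycline replicate 1 (adjusted p = 0.0786) or replicate 2 (0.135), the female lungs.

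Il6, the cytokine that drives the acute phase through STAT3, stood at 3.55, 5.00, 3.51 and 3.95 in the AAV-hSPB repeat lungs and at 5.65, 3.63, 4.39 and 3.81 in the AAV-hSPBTLR9i repeat lungs, against 6.69, 8.09, 5.84 and 4.26 in the off-doxycycline lungs. It exceeded background in 3 of 8 repeat-dose and 4 of 4 off-doxycycline lungs, and differed by -2.04 (adjusted p = 0.0236), a call lost without off-doxycycline replicate 1 (0.0821) or 2 (0.139). Cxcl2, a further neutrophil chemokine, was not above background in any of the 8 repeat-dose lungs and exceeded it only in the 2 female off-doxycycline lungs, at 5.71 and 6.91; its difference of -1.76 (adjusted p = 0.00826) did not pass without off-doxycycline replicate 2 (0.0562). Ccl24, an eosinophil chemokine of macrophages, differed by -2.09 (adjusted p = 0.01), also not without off-doxycycline replicate 2 (0.0604), which held 8.33 against 4.18 to 5.58 in the other lungs of its group. It exceeded background in 2 of 8 repeat-dose and 4 of 4 off-doxycycline lungs, and with values raised to background the difference was -1.24. Without both female off-doxycycline lungs none of Cxcl1, Il6, Cxcl2 and Ccl24 passed (adjusted p 0.31 to 0.496).

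Other falls did not rest on single lungs. Ccl6, a macrophage chemokine, stood at 9.71, 9.86, 9.72 and 8.75 in the AAV-hSPB repeat lungs and at 10.64, 9.84, 9.46 and 10.03 in the AAV-hSPBTLR9i repeat lungs, against 11.68, 11.51, 10.65 and 10.26 in the off-doxycycline lungs, and fell by 1.27 on the log2 scale (adjusted p = 0.00275). Plaur, the urokinase receptor of migrating leukocytes, stood at 8.66, 8.93, 8.88 and 8.15 in the AAV-hSPB repeat lungs and at 8.80, 8.55, 8.42 and 8.50 in the AAV-hSPBTLR9i repeat lungs, against 10.03, 10.64, 9.29 and 8.97 in the off-doxycycline lungs. The groups did not overlap for Plaur (difference -1.12 ± 0.24, adjusted p = 0.0019). Stat3 itself differed by -0.42 ± 0.09 (adjusted p = 0.00218), again without overlap, and Sod2, a mitochondrial superoxide dismutase that inflammation induces, by -0.54. None of these 4 passed without both female off-doxycycline lungs (adjusted p 0.116 to 0.185).

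Lamp3, a membrane protein of the lamellar bodies in which alveolar type II cells store surfactant, stood at 12.22, 12.38, 12.38 and 11.91 in the AAV-hSPB repeat lungs and at 12.21, 12.08, 12.25 and 12.47 in the AAV-hSPBTLR9i repeat lungs, against 13.30, 12.62, 12.81 and 12.81 in the off-doxycycline lungs. It was lower in all 8 repeat-dose lungs (difference -0.65 ± 0.13, adjusted p = 0.00116), with a difference of -0.74 in female and -0.56 in male lungs, and the on-doxycycline lungs averaged 12.44 ± 0.19. Il18, an inflammasome-processed cytokine of epithelium, stood at 8.68, 7.89, 8.88 and 8.01 in the AAV-hSPB repeat lungs and at 8.77, 8.60, 8.70 and 8.90 in the AAV-hSPBTLR9i repeat lungs, against 9.15, 8.94, 9.40 and 9.13 in the off-doxycycline lungs and differed by -0.60 ± 0.16 (adjusted p = 0.00683). Here the on-doxycycline mean, 9.13 ± 0.18, stood beside an off-doxycycline mean of 9.15 ± 0.19, and the call was lost without both male off-doxycycline lungs (0.0675). Cystm1, a small membrane protein, had the smallest p among the falls (-0.61 ± 0.11, adjusted p = 0.00053).

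**Figure D3:**
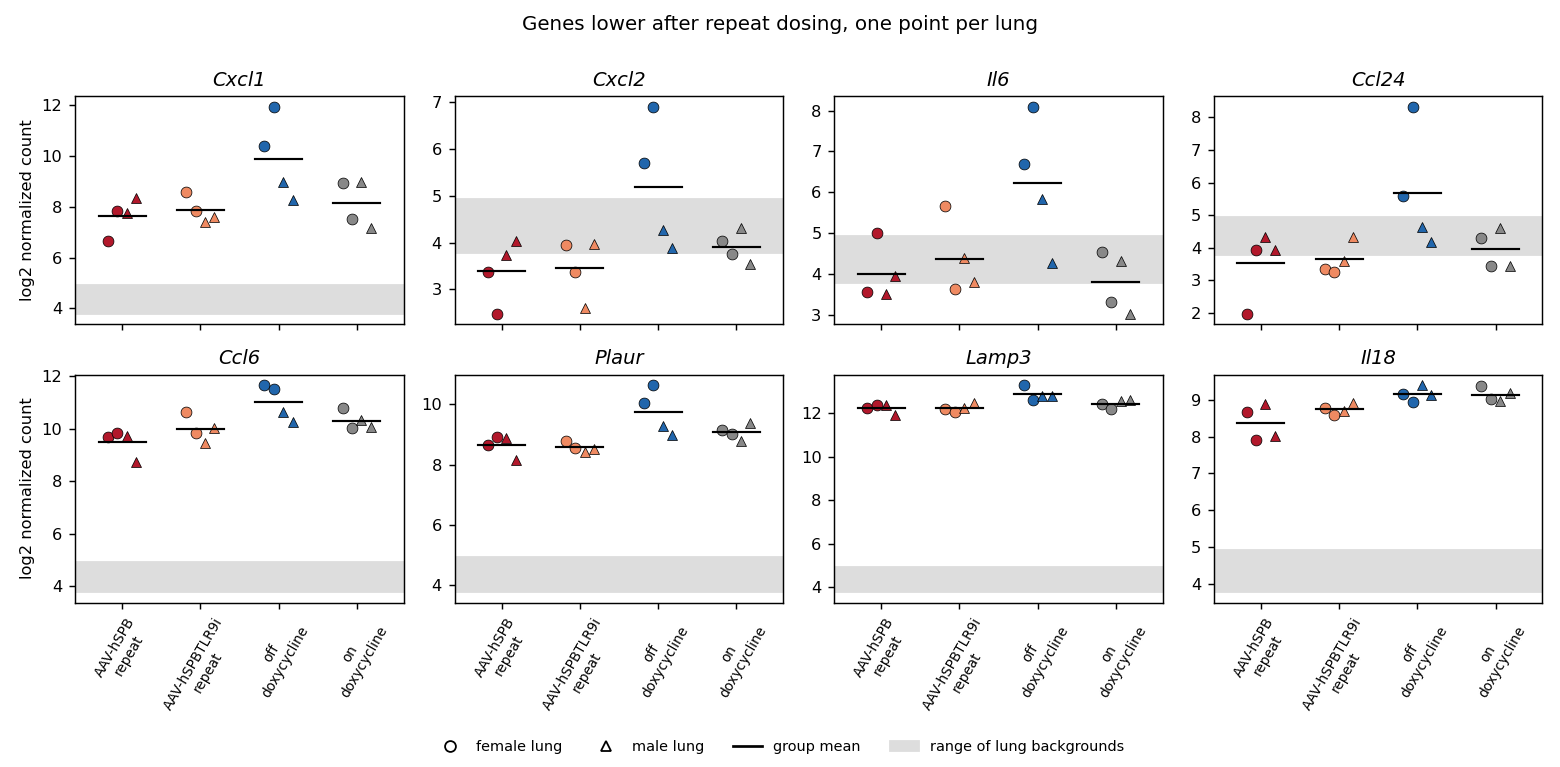
Log2 normalized counts of 8 genes lower after repeat dosing, by lung, in the AAV-hSPB repeat, AAV-hSPBTLR9i repeat, off-doxycycline and on-doxycycline groups (4 lungs each). Circles are female and triangles male lungs, black bars are group means and the grey band is the range of lung backgrounds. For Cxcl1, Cxcl2, Il6 and Ccl24 the female off-doxycycline lungs are the high ones. Plaur, Lamp3 and Il18 separate all repeat-dose from all off-doxycycline lungs, as do 13 of all 773 genes in this direction.

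By list, 2 of 12 neutrophil chemokines and growth factors were lower and 0 higher (median -0.72), 2 of 19 acute cytokines were lower and 0 higher (median -0.31), and 0 of 13 neutrophil markers were called (median -0.25). Over all 773 genes 5.17% were lower. Lcn2, a neutrophil and epithelial iron-binding protein, averaged 11.56 ± 0.69 in repeat-dose and 13.28 ± 2.15 in off-doxycycline lungs and did not pass (adjusted p = 0.0692), but it did without off-doxycycline replicate 3 (0.0259) or 4 (0.0123) or AAV-hSPBTLR9i repeat replicate 1 (0.0455). Its off-doxycycline values of 15.25, 15.02, 11.63 and 11.21 fell into a high female and a low male pair. With the median gene as scale the lower counts of these lists were 6, 4 and 3, and without both female off-doxycycline lungs 0, 0 and 0, whereas without both male ones they were 9, 8 and 3. Over all 773 genes the lower counts in those settings were 105, 7 and 93. Il1b and Tnf did not pass (adjusted p = 0.396 and 0.493), though Il1b did without off-doxycycline replicate 4 (0.0349).

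The on-doxycycline lungs give the level with the transgene on. Between off-doxycycline and on-doxycycline lungs limma called 0 of 773 genes (0% called), with 96 at an unadjusted p under 0.05 and 0 by voom. Between repeat-dose and on-doxycycline lungs it called 177 higher and 31 lower (26.9%, 22.9% upward and 4.01% downward), a split of 120 to 73 with 12 reference genes and 91 to 117 with the median gene, with 131 in all without on-doxycycline replicate 2 and 119 without replicate 4. These comparisons share lungs with the one above, so their values are only set side by side. Cxcl9 differed by 4.06 ± 0.58 between repeat-dose and on-doxycycline lungs and by 0.28 ± 0.67 between off- and on-doxycycline lungs, and Irf4 by 2.47 ± 0.27 and -0.11 ± 0.31. For Cxcl1 the values were -0.39 ± 0.68 and 1.75 ± 0.78, for Il6 0.39 ± 0.65 and 2.42 ± 0.75, and for Plaur -0.47 ± 0.24 and 0.65 ± 0.28, and none of the Cxcl1, Il6 and Plaur values passed.

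Tap1 averaged 9.94 ± 0.37 in repeat-dose, 9.05 ± 0.30 in off-doxycycline and 8.53 ± 0.27 in on-doxycycline lungs, and Zbp1 averaged 7.98 ± 0.39, 6.68 ± 0.62 and 5.87 ± 0.47 in the same order. Neither differed between off- and on-doxycycline lungs at the threshold (adjusted p = 0.304 and 0.277). The count of 0 between off- and on-doxycycline lungs became 6 genes, 3 higher and 3 lower off doxycycline, without off-doxycycline replicate 4, and 1 without on-doxycycline replicate 4.

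Within each sex, rises were called in both, and falls were called more often in female lungs; the difference between the sexes was tested gene by gene. In female lungs 165 genes were higher and 70 lower after repeat dosing than off doxycycline (30.4% called, 21.3% upward and 9.06% downward), and in male lungs 76 and 4 (10.3%, 9.83% upward and 0.517% downward). Of the 181 genes called higher over all lungs, 125 were also called in female and 69 in male lungs, and of the 40 called lower 31 were called in female and 1 in male lungs. Each sex has 2 off-doxycycline lungs, so a difference between the sexes cannot be told apart from one between pairs of lungs.

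The difference between the sexes was itself called for 37 genes (4.79%), 21 with the higher value in female (2.72%) and 16 in male lungs (2.07%) (33 and 17 with the median gene, 17 and 21 with 12 reference genes, and 2 and 7 with only the groups compared in the fit). That count was unstable to single lungs: it was 24, 6, 12 and 3 without off-doxycycline replicates 1 to 4 in turn, 62, 106 and 18 without AAV-hSPB repeat replicates 1, 2 and 4, and 6, 24, 17 and 5 without AAV-hSPBTLR9i repeat replicates 1 to 4. Il1r2, the decoy receptor of interleukin-1, stood at 4.71, 5.06, 4.83 and 4.67 in the AAV-hSPB repeat lungs and at 4.47, 4.04, 4.89 and 4.55 in the AAV-hSPBTLR9i repeat lungs, against 7.70, 9.16, 3.11 and 4.08 in the off-doxycycline lungs. The female off-doxycycline lungs were above all repeat-dose lungs, and 1 male lung was below all of them and the other inside their range, so the difference was -3.86 in female and 1.14 in male lungs (female minus male -5.00 ± 0.61, adjusted p = 0.000599). It exceeded background in 6 of 8 repeat-dose and 3 of 4 off-doxycycline lungs, the exception being male replicate 3, so the difference in male lungs and the size of the sex difference rest in part on values under background.

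Female and male lungs also differed for Ccr1, a chemokine receptor of neutrophils and monocytes (-1.85 in female and 0.41 in male lungs), its ligand Ccl9 (-1.70 and 0.74) and Nfkbia, the inhibitor that NF-kappaB induces (-0.99 and 0.12). Ahr, the aryl hydrocarbon receptor, differed the other way, by 0.95 in female and -0.07 in male lungs. By contrast Irf4, Cd28 and H2-D1 gave 2.62, 1.28 and 1.05 in female and 2.55, 1.31 and 0.91 in male lungs. By list, neutrophil chemokines had 6 of 12 members lower in female and 0 in male lungs, monocyte and eosinophil chemokines 2 higher and 10 lower of 20 in female and 5 higher and 0 lower in male lungs, and MHC class I 10 and 9 of 11 higher. The test of the difference between the sexes called 2 of 12 neutrophil chemokines and 4 of 20 monocyte and eosinophil chemokines, all with the lower value in female lungs, and 0 of 11 MHC class I genes.

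**Figure D4:**
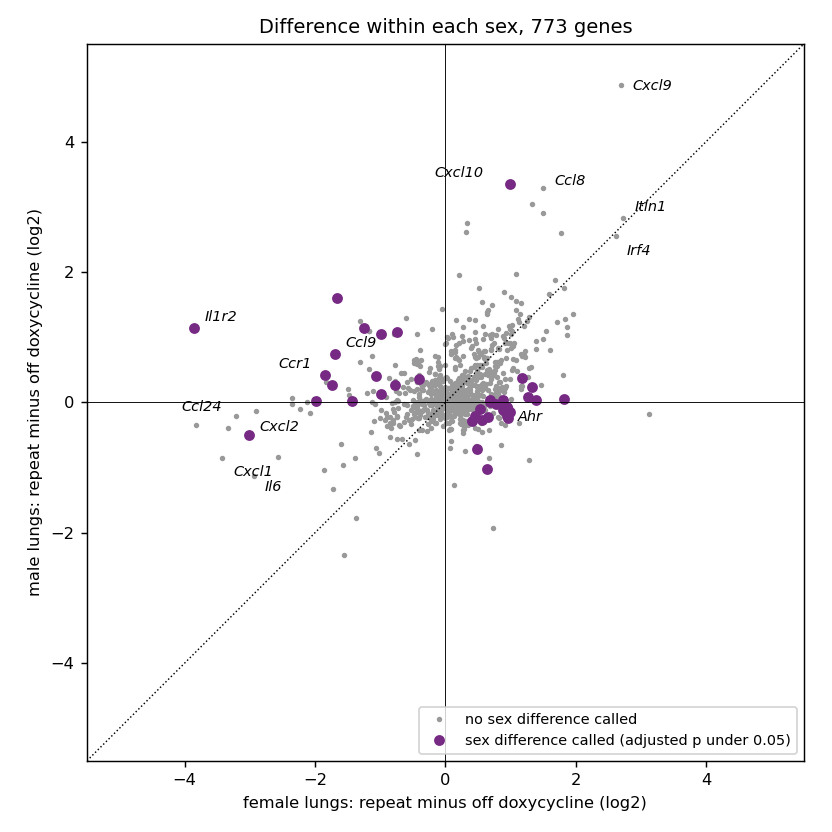
Log2 difference between repeat-dose and off-doxycycline lungs in female lungs (horizontal axis) and male lungs (vertical axis) for 773 genes; the dotted line marks equal differences, and purple points are the 37 genes whose sex difference was called. Irf4 and Itln1 lie on the line in the upper right, whereas Il1r2, Ccr1 and Ccl9 lie at the left, below 0 in female lungs and above 0 in male lungs.

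The off-doxycycline lungs themselves split by sex. Between female and male off-doxycycline lungs 68 genes were higher and 41 lower in the female pair (14.1% called, 8.8% upward and 5.3% downward). Set against on-doxycycline lungs of their own sex, the female pair had 58 genes higher and 42 lower (12.9%, 7.5% upward and 5.43% downward), and the male pair had 0 called by limma (0%), with 15 at an unadjusted p under 0.05. The difference between the sexes in that contrast was itself called for 1 of 773 genes (0.129%). In the female pair 9 of 20 monocyte and eosinophil chemokines, 4 of 12 neutrophil chemokines and 4 of 19 acute cytokines were higher than on doxycycline, with none lower. Il23a, a subunit of interleukin-23, differed by 4.79 ± 0.86 in female lungs (adjusted p = 0.00857), against 1.71 ± 0.86 in male lungs, and the difference between the sexes did not pass (3.08 ± 1.22, adjusted p = 0.201). Il23a exceeded background only in the 2 female of the 4 off-doxycycline lungs and in 0 of 4 on-doxycycline lungs, so the sizes of these differences rest on values under background.

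Each vector was also set against the off-doxycycline lungs alone. After AAV-hSPB 174 genes were higher and 35 lower (27% called, 22.5% upward and 4.53% downward), a split of 121 to 70 with 12 reference genes and 102 to 82 with the median gene. A fit of the groups compared alone called 68 higher and 2 lower. After AAV-hSPBTLR9i 112 were higher and 25 lower (17.7%, 14.5% upward and 3.23% downward; 66 to 31 and 53 to 45 on those scales, and 70 to 2 with the groups compared alone), 137 in all, which became 80 and 79 without off-doxycycline replicates 1 and 2 and 86, 53 and 76 without AAV-hSPBTLR9i repeat replicates 1, 2 and 4. Directly between the vectors, AAV-hSPBTLR9i against AAV-hSPB, limma called 0 of 773 genes (0%), with 51 at an unadjusted p under 0.05, and voom called 0. Irf4 rose by 2.65 ± 0.31 with AAV-hSPBTLR9i and 2.52 ± 0.31 with AAV-hSPB, and Cd28 by 1.21 ± 0.18 and 1.38 ± 0.18.

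Among the genes with the smallest p between the vectors were Tap2 at -0.51 ± 0.14, Rbck1 at -0.38 ± 0.11, Xaf1 at -0.41 ± 0.12 and Il19 at 1.37 ± 0.43, all with an adjusted p of 0.723. Il19 exceeded background in 0 of the 8 repeat-dose lungs. Tap2 stood at 10.40, 10.18, 9.85 and 9.94 in AAV-hSPBTLR9i and at 10.61, 10.96, 10.34 and 10.49 in AAV-hSPB repeat lungs, which overlap. Cxcl9 differed by -0.30 ± 0.67 and Tlr9 by -0.20 ± 0.28 between the vectors. Missing the threshold does not show that the vectors acted alike.

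Repeat-dose and single-dose lungs share the vectors and the 90 days without doxycycline, so that comparison leaves out the withdrawal time but shares the repeat-dose lungs. The last dose lay 7 days before harvest in repeat-dose and 97 days in single-dose lungs. A second dose and a recent dose therefore cannot be told apart. It called 67 genes higher and 10 lower (9.96%, 8.67% upward and 1.29% downward; 46 and 41 with 12 reference genes, 53 and 17 with the median gene). Irf4 (1.63 ± 0.22), Cxcl10 (2.16 ± 0.31), Tigit (1.88 ± 0.28) and Cd28 (0.82 ± 0.13) were among those with the smallest p, with adjusted p of 0.000457 or less, and Cxcl9 was called higher too (adjusted p = 0.00166). MHC class I genes had 10 of 11 and interferon gamma-induced genes 10 of 12 members higher, whereas B cell genes had 3 of 15 higher, with Cd79a at 0.58 ± 0.21 (adjusted p = 0.0896) and Ms4a1 at 0.19 ± 0.30 (adjusted p = 0.732). Of the falls, Lamp3 (-0.43 ± 0.11, adjusted p = 0.0131) and Il18 (-0.65 ± 0.13, adjusted p = 0.00213) were lower than after a single dose as well, and Cxcl1 (-0.09 ± 0.55) and Il6 (-0.57 ± 0.53) did not pass.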

How the data were processed

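Total RNA of right lung was counted on an nCounter panel, which counts RNA through hybridized fluorescent barcodes without amplification, of 773 genes and 12 reference genes. The authors deposited a table of log2 normalized counts for 24 day 97 lungs, with the same values on a linear scale beside them; no software, background step or choice of reference genes is given in the sources used here. From the values, 6 reference genes (mean log2 equal in every lung) scale that table. A linear signal deposited in the series matrix is scaled to all 12. The 9 columns of 3 h lungs in that matrix were not used.

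Whole counts came back from the linear copy as multiples of 1 factor per lung, within 0.02 of a whole number for 100% of values, and give the depths and a voom fit added after seeing the data. Background, per lung, is 2 SD above the mean of the 8 dimmest of its control probes. Values at background were tested as deposited. All 24 lungs were fitted together as 6 groups, or as 12 group by sex means for the sexes, with limma 3.58.1 (lmFit, contrasts.fit and eBayes; R 4.3.3), with no filter or covariate, and p-values were adjusted over 773 genes (Benjamini-Hochberg, threshold 0.05). On simulated data with 200 genes changed, 55.3% of those at 0.5 log2 units were called, 83.2% of those at 1 and 97.2% of those at 2, and 3.65% of calls were false. The simulated noise was independent between lungs, with a spread for each gene that was equal in every group. Unequal spread, likeness of lungs within a sex and shifts of scale were not simulated, so these rates may not hold for the real lungs. A ± is limma's standard error unless SD is named. Python 3.11.15, pandas 2.3.3, numpy 2.4.6 and matplotlib 3.10.9 made the tables and figures.

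The comparison, the 30 gene lists and the naming rule were chosen with earlier results of these data known. The rule named the 15 largest rises and falls called, up to 4 called members per list by p, the 5 smallest p of each other comparison and a fixed set of immune genes, 117 genes in all after 2 that are not reported here, from which the text takes examples. Alternatives were 2 scalings, the series matrix values, a filter on the lowest 25% of genes, a fit of the compared groups alone, sex as a term, a trended and robust prior, and each lung left out. Added after seeing the data were voom, the low or high run of a second identifier as a term, and the off-doxycycline lungs of either sex left out. Sftpb was not analysed here.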

Additional observations from a re-analysis of the deposited data

Results flagged for a closer look

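Among 351 combinations of a named gene and a group of 4 lungs, 18 (5.13%) held a lung whose gap to the nearest other was large against the range of its group, and chance gives about 1 in 20. In the AAV-hSPB repeat group these log2 levels were Ccl24 at 1.969 in replicate 1 (3.935 to 4.318 in the other 3), Ccl6 at 8.75 in replicate 4 (9.71 to 9.861 in the other 3), Tnfrsf10b at 7.382 in replicate 2 (6.969 to 7.018 in the other 3), Tlr1 at 7.257 in replicate 3 (7.886 to 7.991 in the other 3), Itgae at 7.35 in replicate 4 (6.369 to 6.453 in the other 3), Ms4a1 at 7.23 in replicate 2 (9.071 to 9.119 in the other 3) and Myd88 at 8.742 in replicate 2 (8.028 to 8.111 in the other 3). In the AAV-hSPBTLR9i repeat group these log2 levels were Itln1 at 11.08 in replicate 1 (8.174 to 8.539 in the other 3), Hspb1 at 10.17 in replicate 4 (10.51 to 10.56 in the other 3), Il19 at 2.971 in replicate 3 (3.228 to 3.264 in the other 3), Ccl2 at 8.163 in replicate 1 (7.327 to 7.411 in the other 3) and Tnf at 5.849 in replicate 2 (6.309 to 6.357 in the other 3). In the off-doxycycline group these log2 levels were Ifna4 at 2.177 in replicate 4 (1.693 to 1.753 in the other 3), Tlr2 at 7.981 in replicate 2 (7.481 to 7.562 in the other 3), Cd28 at 6.347 in replicate 4 (6.518 to 6.544 in the other 3), Cd4 at 6.934 in replicate 1 (6.412 to 6.481 in the other 3), Mtor at 8.347 in replicate 1 (8.547 to 8.569 in the other 3) and Tyk2 at 7.023 in replicate 1 (7.434 to 7.518 in the other 3). Of the 18, 3 were in AAV-hSPB repeat replicate 2 and 3 in off-doxycycline replicate 1.

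The log2 difference between repeat-dose and off-doxycycline lungs was itself different between the sexes for 8 named genes (limma, adjusted p under 0.05). Female minus male, these differed: Cxcl10 by -2.359, Cxcl2 by -2.523, Xaf1 by 0.6473, Il1r2 by -4.997, Ccr1 by -2.26, Ccl9 by -2.438, Ahr by 1.016 and Nfkbia by -1.109. Each sex rests on 2 off-doxycycline lungs.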

How the results depend on the processing

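Of the 221 genes called between repeat-dose and off-doxycycline lungs, leaving out 1 lung gave 148 to 264, leaving out both female off-doxycycline lungs 131 and male lungs alone 80. For AAV-hSPB repeat against off-doxycycline lungs a fit of those groups alone gave 70, and leaving out 1 lung 157 to 237. For AAV-hSPBTLR9i repeat against off-doxycycline lungs (137) the groups alone gave 72, leaving out both female off-doxycycline lungs 40 and both male ones 232, and leaving out 1 lung 53 to 180. Between off- and on-doxycycline lungs (0) the median gene as scale and the run of the second identifier as a term each gave 1, leaving out both male off-doxycycline lungs 155, and leaving out 1 lung 0 to 6. Repeat-dose against on-doxycycline lungs gave 119 to 228 and against single-dose lungs (77) 54 to 97 with 1 lung left out. The difference between the sexes (37) gave 9 with the groups alone and 3 to 106 with 1 lung left out. The direct comparison of the vectors gave 0 throughout. The causes of these shifts were not tested. Of 92 named genes called, 48 changed their call under at least 1 of 23 alternatives. The planned edgeR fit was not run, because the deposited values are not counts; voom, chosen after seeing the data, took its place. No paired analysis was possible because each sample has a number of its own and replicate numbers were given only in accession order. Genes near background, 73 to 114 a lung in the repeat-dose groups, have the least certain differences.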

Other observations

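Gene groups not described above were counted as higher and lower in repeat-dose than in off-doxycycline lungs, beside 23.4% and 5.17% of all 773 genes and a median of 0.13. Among signalling genes the counts were for TNF superfamily and lymphoid organization genes 10 and 0 of 20 (median 0.54), interferon regulatory factors and STATs 9 and 1 of 18 (median 0.26), cytosolic nucleic acid sensors 5 and 0 of 12 (median 0.22) and interferons and their receptors 3 and 0 of 11 (median 0.31). Among inflammatory genes they were for inflammasome and cell death genes 6 and 2 of 24 (median 0.04), NF-kappaB subunits and inhibitors 1 and 0 of 10 (median 0.13), type 2 and helper cytokines 2 and 2 of 22 (median 0.10), monocyte and eosinophil chemokines 4 and 2 of 20 (median -0.07) and macrophage and dendritic cell markers 2 and 0 of 11 (median -0.01). Among stress and metabolic genes they were for heat shock and endoplasmic reticulum stress genes 3 and 1 of 10 (median 0.13), hypoxia and oxidative stress genes 0 and 1 of 7 (median -0.20), complement and coagulation genes 0 and 1 of 10 (median -0.01), eicosanoid genes 1 and 1 of 12 (median 0.12) and lysosome and autophagy genes 2 and 0 of 13 (median 0.01). Among markers of other cells they were for lung epithelium markers 1 and 2 of 6 (median -0.06), endothelium and fibroblast markers 0 and 0 of 6 (median -0.04), liver transcripts 0 and 0 of 4 (median 0.12) and proliferation genes 0 and 0 of 1 (median -0.71). Tyk2, a kinase of interferon receptors, rose by 0.91, and Casp1, which cleaves interleukin-1 beta and interleukin-18, by 0.92. Aim2, a sensor of cytosolic DNA, rose by 0.70 and Tnfrsf4, the costimulatory receptor OX40, by 0.87. Of the lung epithelium markers Itln1 was higher and Lamp3 and Cdh1 were lower, and Cdh1 (adjusted p = 0.0327) lost its call without off-doxycycline replicate 1 or 4, AAV-hSPB repeat replicate 1 or 4, or AAV-hSPBTLR9i repeat replicate 1 or 2 (0.0523 to 0.109).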
